A study of Macaca fascicularis with 11 samples.

Results

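The 6 HOX genes HOXA3, HOXA5, HOXB6, HOXB9, HOXD4 and HOXD9 were followed in single cells of in vitro cultured cynomolgus monkey (Macaca fascicularis) embryos. They are 6 of the 19367 genes counted, and were chosen by name, each through the one Ensembl identifier that the study's own gene tables pair with the symbol (ENSMFAG00000045540 for HOXA3, ENSMFAG00000045639 for HOXA5, ENSMFAG00000002294 for HOXB6, ENSMFAG00000043120 for HOXB9, ENSMFAG00000044313 for HOXD4 and ENSMFAG00000000099 for HOXD9). Wild-type and ISL1 hypomorphic mutant embryos had been thawed as frozen blastocysts, freed of the zona pellucida, cultured without a uterus and dissociated whole at Day 10, Day 12 or Day 14. The mutants came from zygotes injected with Cas9 (SpCas9 mRNA per the labels, protein per the methods of the study) and guide RNAs against ISL1, the gene of a LIM homeodomain factor of the amnion, so they carry mixtures of edited alleles rather than 1 defined mutation. Of the 11 libraries, 6 held 12 wild-type embryos (2 libraries a day) and 5 held 11 mutant embryos (1 library at Day 10, 2 at Day 12 and 2 at Day 14), with 1 to 3 embryos pooled in each library.

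HOX genes encode homeodomain transcription factors and lie in clusters. During gastrulation they are switched on in sequence along each cluster, from the genes that act near the head to those that act near the tail, first in cells that leave the primitive streak. CDX factors, WNT signals and retinoic acid are known to promote this activation, and the cells carry the resulting code into the mesoderm of the trunk and of the extraembryonic membranes. Among the members, HOXA3 patterns the pharyngeal arches, HOXD4 the hindbrain and upper neck, HOXA5 the neck and airways, HOXB6 is a gene of the lateral plate mesoderm, HOXB9 helps to pattern the ribs, and HOXD9 acts in the lower trunk and limbs.

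In all, 33330 cells were analysed, with 36654977 to 164808415 UMIs (unique molecular identifiers, 1 per captured RNA molecule) per library and a median of 10916 to 142180 UMIs per cell. A cell barcode was shared by more than 1 library in 124 cases (249 cells). Levels are given as CPM: the UMIs of a gene, added up over all cells that a library holds of one type, divided by all UMIs of those cells and put on the usual CPM scale. The library is the replicate. Because the chemistry reads transcript ends, levels are not compared between genes. Cell types are named "X-like" from marker genes that exclude every gene reported here, and the lineages were apart on them: the summed level of the 12 Epi-derived markers was 7970 to 21824 CPM in Epi-derived cells (epiblast and what it gives rise to) and 337 to 651 CPM in trophoblast-like cells. The wild-type Day 12 replicate 1 library, from 1 embryo, held only 14 Epi-derived cells, all Epi-like, and no UMI of any member in them. ISL1 RNA itself lay between 0.901 and 8.38 CPM in wild-type and between 1.42 and 4.67 CPM in mutant libraries, so it did not separate the genotypes. Tags from the end of a transcript need not fall with a deletion near its start, and the ISL1 count checks no label.

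At Day 14 all 6 genes were higher in Epi-derived cells of wild-type embryos than the average of the log levels over the other 3 lineages, which are extraembryonic mesenchyme-like (ExE-Mech-like), endoderm-like and trophoblast-like cells, where 12.6% of the 13538 genes tested were higher. The study listed HOXA5, HOXB6, HOXB9, HOXD4 and HOXD9 in contrasts among Epi-derived cells of these embryos, so their calls here are not independent evidence. The share over all genes is of genes not chosen in that way. The test does not set the 6 genes against each lineage alone, and in replicate 1 HOXB9 had 4.10 CPM in both Epi-derived and ExE-Mech-like cells. HOXD9 had 9.20 and 17.4 CPM in Epi-derived cells of the 2 wild-type libraries, against a mean of 1.12 CPM over the other lineages (log2 difference 3.72 ± 0.47 SE, adjusted p = 0.000101, edgeR's quasi-likelihood test). HOXB6 had 15.6 and 34.0 CPM against a mean of 6.42 CPM (2.02 ± 0.39, adjusted p = 0.00200). HOXD4 had 6.86 and 35.5 CPM against a mean of 3.06 CPM (4.61 ± 0.48, adjusted p = 2.28e-05).
The remaining 3 genes had no UMI in endoderm-like cells at Day 14, so a fitted fold would depend on the constant added to zeros, and only levels and adjusted p-values are given. HOXA3 had 3.83 and 4.81 CPM in Epi-derived cells, HOXA5 had 5.14 and 9.61 CPM, and HOXB9 had 4.10 and 16.3 CPM, with adjusted p = 7.97e-05, 7.47e-05 and 0.000200. A count of 0 in the endoderm-like cells allows up to 1.32 and 5.42 CPM in the 2 libraries (3 counts each). The HOXB6 call rested on wild-type Day 14 replicate 2: without that library the difference was 1.39 and adjusted p = 0.0480. The other 5 genes passed under all 9 alternatives run.

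Within the Epi-derived cells the transcripts were not spread evenly. Epi-like cells, the cells that keep pluripotency genes, held few of them in most libraries: over all 11 libraries their 1493 cells held 13 UMIs of HOXB6, 31 of HOXD4, 14 of HOXD9, 7 of HOXA3, 6 of HOXA5 and 3 of HOXB9. In mutant Day 12 replicate 2 the Epi-like cells had 6 of the 7 HOXA3 UMIs, and at 2.86 CPM their HOXA3 level was not below that of all Epi-derived cells of the library (2.72 CPM). A member UMI was seen in 10.5% to 13.8% of the Epi-like cells of 3 libraries (wild-type Day 10 replicate 2, wild-type Day 12 replicate 2 and mutant Day 12 replicate 2) and in 0% to 3.16% in the 8 others. Mesoderm-like cells, which may hold extraembryonic mesoderm, above all at Day 10, carried a larger part of the wild-type UMIs than their share of the cells. In wild-type Day 10 replicate 1, 25 mesoderm-like cells were 3.80% of the cells of the library and held 86.9% of its HOXB6 UMIs (305 of 351). The same type held 72.2% of the HOXB6 UMIs in Day 10 replicate 2, 27.5% in Day 12 replicate 2, and 25.1% and 12.7% at Day 14. Thus the share of HOXB6 outside the mesoderm-like cells was larger at the later days, when trophoblast-like cells also carried it. The mesoderm marker lists do not tell embryonic from extraembryonic mesoderm, and clusters were drawn from other genes of the same cells, so these levels are a description without a test.

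In mesoderm-like cells HOXB6 reached 154 and 159 CPM in the 2 wild-type libraries of Day 10 and 180 CPM in the 1 Day 12 library with such cells, then 38.0 and 52.6 CPM at Day 14. The 3 earlier libraries all lay above the 2 later ones. HOXD4, a gene that responds to retinoic acid, followed another course, with 22.2 and 27.6 CPM at Day 10, 202 CPM at Day 12, and 15.7 and 69.0 CPM at Day 14. Its Day 12 library stood above every other one, and its Day 10 levels lay between those of Day 14.
HOXB9 had 20.7 and 21.1 CPM at Day 10, 83.3 CPM at Day 12, and 9.97 and 40.9 CPM at Day 14. HOXD9 had 16.6 and 46.4 CPM at Day 10, 71.0 CPM at Day 12, and 18.2 and 39.7 CPM at Day 14. For HOXB9 and HOXD9 too, the single Day 12 library was the highest and the Day 10 and Day 14 libraries overlapped.
HOXA5 had 5.55 and 19.4 CPM at Day 10, 29.4 CPM at Day 12, and 10.96 and 25.7 CPM at Day 14. HOXA3 had 4.54 and 4.84 CPM at Day 10, 16.3 CPM at Day 12, and 8.00 and 4.68 CPM at Day 14. The class was made of different clusters on these days: all cells of Day 10 and, at Day 14, 150 of replicate 1 and 5 of replicate 2 were in clusters that matched the study's meso-2 markers, the other 61 and 30 cells of Day 14 matched meso-1, and those of Day 12 had neither name.

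**Figure D1:**
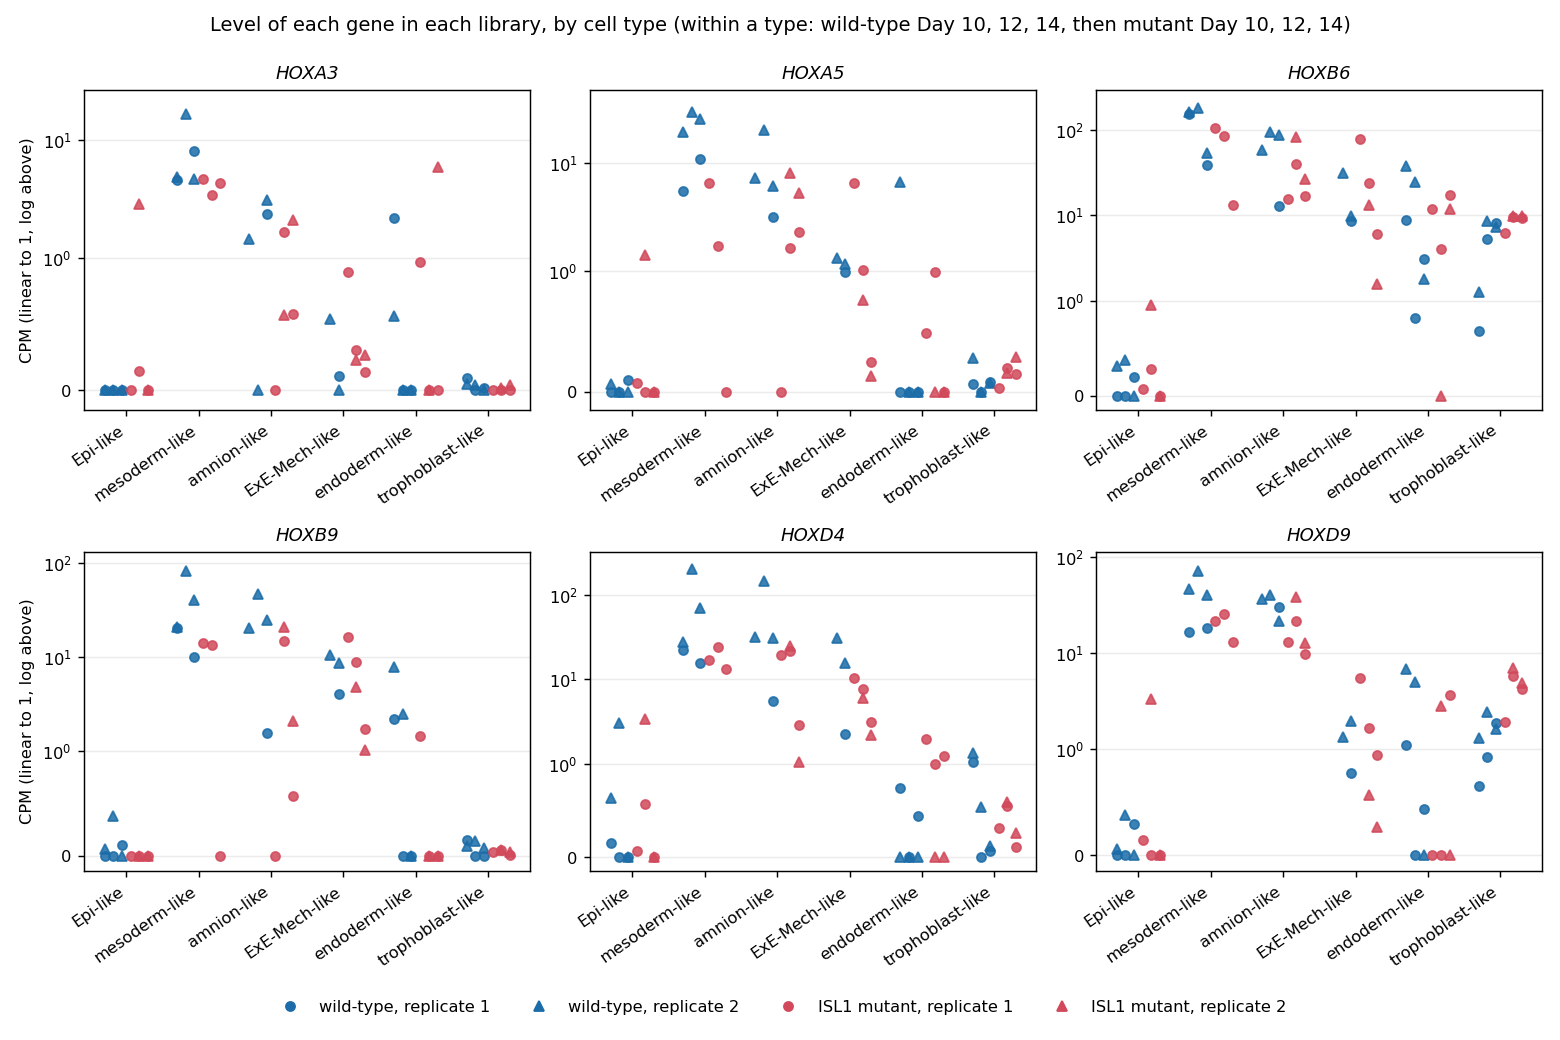
Each panel gives the CPM of 1 HOX gene (vertical axis, linear up to 1 and logarithmic above) in every library that holds at least 5 cells of the type; circles are replicate 1, triangles replicate 2, blue wild-type and red ISL1 mutant, with the days in order within each type. The highest point of each panel is a wild-type library of mesoderm-like cells (Day 12 replicate 2), and Epi-like cells stay at or below 3.33 CPM.

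Several of the 6 genes were often detected in the same mesoderm-like cell. In wild-type libraries 96% (24 of 25 cells) and 100% of the mesoderm-like cells at Day 10, 97.0% at Day 12, and 62.6% and 82.9% at Day 14 had at least 1 member UMI. Without thinning, at least 4 of the 6 genes were seen in 40.0% and 75% of the cells at Day 10, 72.7% at Day 12, and 23.2% and 31.4% at Day 14. Depth differed between libraries, from a median of 23539 UMIs per mesoderm-like cell in wild-type Day 14 replicate 2 to 127379 in Day 10 replicate 2. After every cell was thinned to 10000 UMIs, 73.7% and 86.6% of the cells at Day 10, 92.6% at Day 12, and 41.1% and 68.8% at Day 14 kept a member UMI, and no test compared the days. Only 3 cells of Day 14 replicate 1 were too shallow for this. Trophoblast-like cells, given here as a background that also carries HOXB6, had a member UMI in 12.1% to 35.9% of wild-type cells at median depths of 27592 to 143737 UMIs, and 0 to 0.446% of them had 4 or more members.

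**Figure D2:**
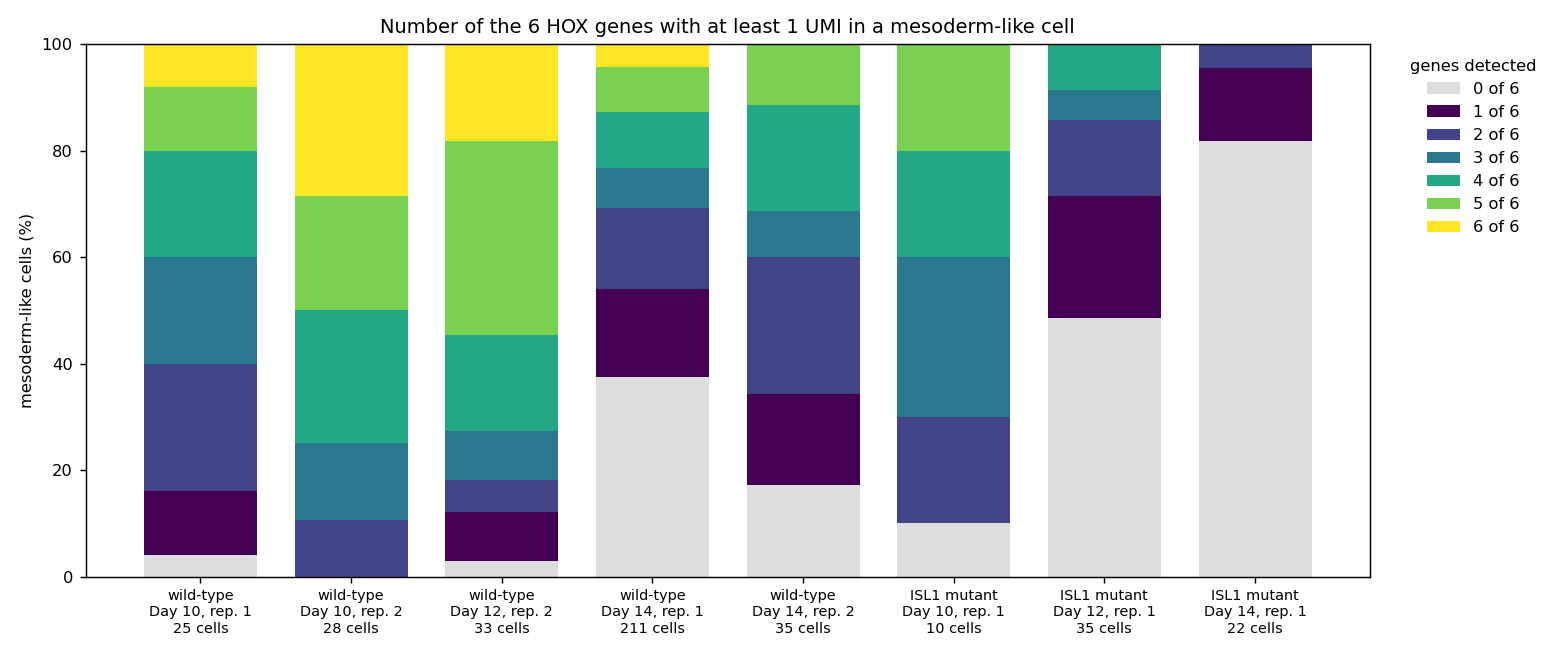
Stacked bars give the percentage of mesoderm-like cells (vertical axis) in which 0 to 6 of the 6 HOX genes had at least 1 UMI, 1 bar per library with at least 5 such cells, without thinning. Cells with 4 or more genes make up 23.2% to 75% of the wild-type bars, 40.0% of the mutant Day 10 bar, 8.57% of the mutant Day 12 bar and none of the mutant Day 14 bar, whose cells are also the shallowest.

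CDX2, an activator of HOX genes, was often seen in the same cells as the members. Among Epi-derived cells of 5 wild-type libraries, 54.9% to 76.0% of the cells with a CDX2 UMI also had a member UMI, against 3.67% to 14.9% of the cells without CDX2. In wild-type Day 12 replicate 1, which had no member UMI, it was 0 of 6 cells with CDX2. In the 5 mutant libraries the shares were 27.8% to 57.1% and 3.90% to 19.2%. These shares pool Epi-like cells, few of which had a member UMI, with mesoderm-like, amnion-like and other Epi-derived cells. CDX2 and the members were not compared within a type. Median depths of cells with and without CDX2 were 43673 and 43990 UMIs in wild-type Day 14 replicate 1, but 35512 and 17857 UMIs in mutant Day 14 replicate 2. The parts of cell type and of depth in these shares were not tested.

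Amnion-like cells held all 6 genes too, and at Day 14 exceeded the mesoderm-like cells of the same library for HOXD9 in replicate 1 and for HOXB6 in replicate 2. HOXB6 had 57.2 CPM in wild-type Day 10 replicate 2, 93.7 CPM in Day 12 replicate 2, and 12.7 and 86.7 CPM at Day 14. HOXD9 was steadier, with 36.2, 40.2, 30.1 and 21.7 CPM in the same 4 libraries. HOXD4 had 31.2, 144, 5.54 and 31.0 CPM. All 4 levels of HOXD9 lay within the range of the wild-type mesoderm-like cells. So did those of HOXA5, HOXB6, HOXB9 and HOXD4 in 1 or more libraries. The 4 libraries held only 9 to 41 amnion-like cells each.
The study drew HOXD4, HOXA5, HOXB6 and HOXB9 from wild-type AM-1 cells against AM-2 cells, so the wild-type values are no independent evidence. It reported more RNA of pluripotency genes in AM-1, and proposes that AM-2, marked by GABRP, is amniotic epithelium. In wild-type Day 14 replicate 1, HOXB6 had 30.1 CPM in 13 AM-1-like cells and 1.31 CPM in 28 AM-2-like cells, and HOXD9, which was not in that set, had 42.1 and 22.2 CPM. In the mutants HOXB6 had 32.4 and 33.2 CPM in AM-1-like cells and 12.2 and 23.4 CPM in AM-2-like cells, a log2 difference of 0.68 ± 0.58 SE that did not pass (adjusted p = 0.583, edgeR). HOXD4 differed by 2.45 ± 2.04 (adjusted p = 0.574) and HOXD9 by 0.28 ± 0.86 (adjusted p = 0.907). None of these 3 testable members was called, where 3.4% of 6671 genes were, with 0 at an unadjusted p under 0.05 and 0 by DESeq2. HOXA3, HOXA5 and HOXB9 had too few UMIs to be tested.

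Extraembryonic mesenchyme-like cells carried a part of the set. At wild-type Day 14 HOXB9 had 4.10 and 8.81 CPM and HOXD4 had 2.22 and 15.5 CPM there, and both were called higher than in the other 3 lineages (adjusted p = 0.000728 and 0.00252, edgeR), where 8.1% of the genes tested were higher. This contrast averages log levels over lineages that include endoderm-like cells at or near 0, and the ExE-Mech-like means (6.45 and 8.86 CPM) were still below the Epi-derived means (10.2 and 21.2 CPM). HOXB6 had 8.53 and 9.73 CPM (log2 difference 0.18 ± 0.42, adjusted p = 0.836). HOXD9 had 0.776 and 1.97 CPM, HOXA5 had 0.997 and 1.18 CPM, and HOXA3 had 0.111 and 0 CPM. HOXB9 lost its call without wild-type Day 14 replicate 1 (adjusted p = 0.0104) and HOXD4 without replicate 2 (adjusted p = 0.132).
For HOXA5, HOXB6, HOXB9 and HOXD4 each genotype's mesenchyme-like levels at Day 14 lay below its levels at Day 12, which was not tested, and those of HOXA3 and HOXD9 overlapped between these days in the mutants. HOXB6 had 31.3 CPM in the wild-type Day 12 library, and the mutants had 23.8 and 13.2 CPM at Day 12 and 6.04 and 1.58 CPM at Day 14. HOXB9 had 10.5 CPM in the wild-type Day 12 library, and the mutants had 8.95 and 4.84 CPM at Day 12 and 1.75 and 1.04 CPM at Day 14. HOXA5 had 1.34 CPM in the wild-type Day 12 library, and the mutants had 1.03 and 0.762 CPM at Day 12 and 0.244 and 0.135 CPM at Day 14.

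Endoderm-like cells held few transcripts of the 6 genes. At wild-type Day 14 they had 7 and 1 UMIs of HOXB6 (3.08 and 1.81 CPM), 1 and 0 UMIs each of HOXD4 and HOXD9, and none of the others. No member passed (4.02% of the genes tested were lower), with 3 at an unadjusted p under 0.05, all lower, as were 2251 of 13538 genes, and 0 by DESeq2. HOXB6 came nearest, at a log2 difference of -2.15 ± 0.65 (adjusted p = 0.0313, edgeR). At wild-type Day 10 the endoderm-like cells still had 8.82 and 37.6 CPM of HOXB6, from 24 and 67 UMIs.

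In trophoblast-like cells the 6 genes had different courses over the days. HOXB6 had 0.679 and 1.25 CPM at wild-type Day 10, 5.31 and 8.47 CPM at Day 12, and 8.14 and 7.22 CPM at Day 14. In the mutants it had 6.25 CPM at Day 10, 9.55 and 9.76 CPM at Day 12, and 9.25 and 9.64 CPM at Day 14. The 2 wild-type Day 10 libraries thus lay below all 9 others. HOXD9 had 0.648 and 1.30 CPM at wild-type Day 10, 0.921 and 2.43 CPM at Day 12, and 1.88 and 1.63 CPM at Day 14. Its mutant levels were 1.91 CPM at Day 10, 5.72 and 6.93 CPM at Day 12, and 4.22 and 4.82 CPM at Day 14. At Day 12 and at Day 14 both mutant libraries lay above both wild-type libraries for each of these genes, and no test compared them.
HOXB9 stayed at or below 0.154 CPM, HOXA3 at or below 0.0925 CPM and HOXA5 at or below 0.291 CPM in trophoblast-like cells of all 11 libraries. HOXD4 had 1.05 and 1.35 CPM at wild-type Day 10 and 0.0635 and 0.116 CPM at Day 14, which no test compared. Over the Day 10 libraries of both genotypes it was uneven between trophoblast-like clusters. It had 2.34, 3.20 and 3.00 CPM in the highest clusters and at most 0.734 CPM in the others. CDX1 was among the leading genes of the first of these, and KRT18 and KRT8, which are on the AM-2 marker list, among those of the second. S100A16, on the endoderm marker list, was among the leading genes of each. The marker rule named all of them trophoblast-like, and that name was not tested further. The part of these clusters in the Day 10 level was not tested. At wild-type Day 14 HOXD4 was the 1 member called lower in trophoblast-like cells than in the other lineages (log2 difference -5.01 ± 1.31, adjusted p = 0.00906, edgeR), where 11.5% of the genes tested were lower. That call was lost under 5 of 9 alternatives, with adjusted p from 2.87e-08 to 1, and DESeq2 called 4 members lower. HOXB6 and HOXD9 did not pass there (log2 differences -0.04 ± 0.42 and 0.08 ± 0.59).

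Relative to HOXB6, trophoblast-like libraries other than wild-type Day 10 stood apart from the mesoderm-like and ExE-Mech-like ones for HOXB9 and HOXD4. This was not tested. Per 100 UMIs of HOXB6, mesoderm-like cells with at least 20 HOXB6 UMIs held 13.2 to 77.8 UMIs of HOXB9, and ExE-Mech-like cells held 20.9 to 90.5. Trophoblast-like cells held 22.7 and 7.41 at wild-type Day 10 and at most 1.69 in the 9 other libraries. The wild-type Day 10 values rest on 5 and 4 UMIs of HOXB9 beside 22 and 54 of HOXB6. HOXD4 per 100 HOXB6 was 14.4 to 131 in mesoderm-like cells and 13.3 to 159 in ExE-Mech-like cells. In trophoblast-like cells it was 155 and 107 at wild-type Day 10 (a day when HOXD4 was uneven between clusters) and at most 6.33 elsewhere. For both genes the 9 other trophoblast-like libraries lay below every mesoderm-like and ExE-Mech-like library with at least 20 HOXB6 UMIs. HOXD9 per 100 HOXB6 was 4.28 to 20.3 in ExE-Mech-like cells, 10.8 to 75.6 in mesoderm-like cells and 17.3 to 104 in trophoblast-like cells, ranges that overlapped. The correction for free RNA removed 79 of 5669 HOXB6 UMIs from trophoblast-like cells.

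**Figure D3:**
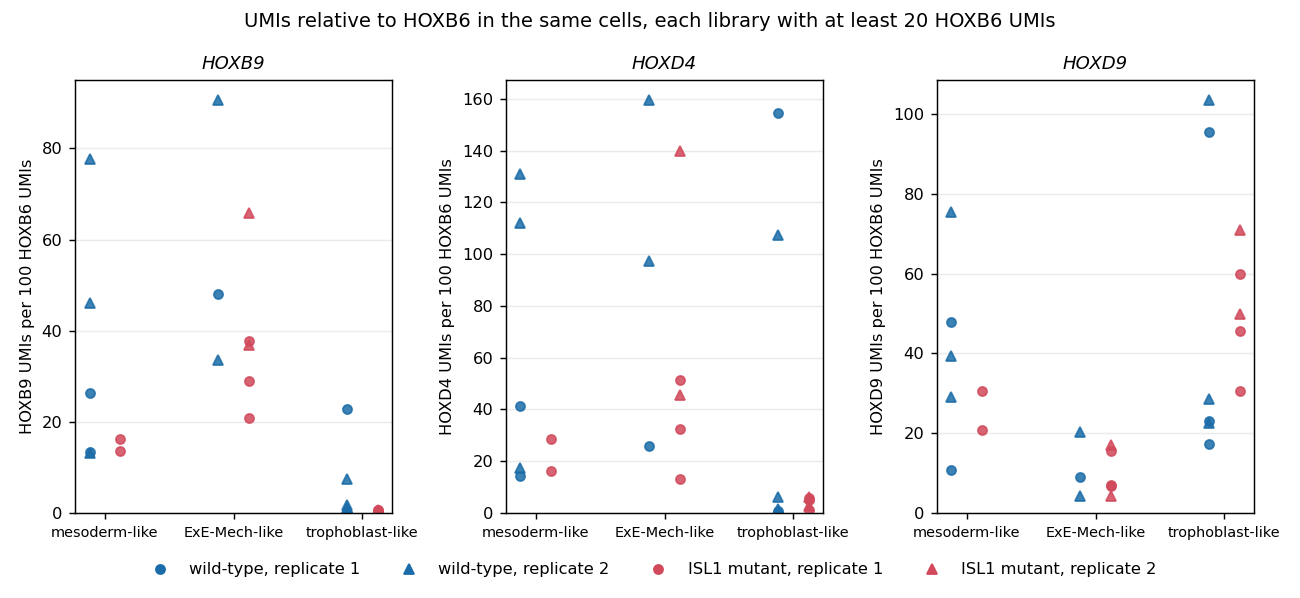
Each point is a library with at least 20 HOXB6 UMIs in the type, and the vertical axis gives the UMIs of HOXB9, HOXD4 or HOXD9 per 100 UMIs of HOXB6 in the same cells; blue is wild-type and red mutant. The ratios of HOXB9 and HOXD4 are near 0 in 9 of the 11 trophoblast-like libraries, while that of HOXD9 keeps at least 17.3. The 2 exceptions are wild-type Day 10, with only 22 and 54 HOXB6 UMIs.

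Within the trophoblast HOXB6 was uneven. Over the 22 trophoblast-like clusters of Day 14 it ranged from 0.854 to 24.9 CPM. In the 6 clusters with PAGE4, a cytotrophoblast gene, among their leading genes HOXB6 had 0.854 to 2.77 CPM, and in the 3 clusters with CALCB among theirs it had 15.1 to 18.1 CPM. These levels pool cells of the Day 14 libraries of both genotypes, and the part of the clusters' library make-up in them was not tested. PAGE4 and CALCB were picked after these values were seen, and the clusters were drawn without HOXB6 among the features. Median depths were 4569 to 20508 UMIs and 20088 to 27248 UMIs.

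Over all Epi-derived cells of wild-type embryos, the level of the 6 genes showed no change between days that passed the test. From Day 10 to Day 14 HOXA3 went from 1.50 and 1.36 CPM to 3.83 and 4.81 CPM, a log2 difference of 1.56 ± 0.81 (adjusted p = 0.378, edgeR). HOXD4 went from 6.39 and 6.80 CPM to 6.86 and 35.5 CPM, a difference of 1.55 ± 1.20 (adjusted p = 0.564). HOXB6 went from 30.4 and 27.0 CPM to 15.6 and 34.0 CPM, a difference of -0.28 ± 1.01 (adjusted p = 0.928). None of the 6 was called, where 0.0403% of 12399 genes were, with 0 at an unadjusted p under 0.05 and 0 by DESeq2.
At Day 12 the 2 wild-type libraries disagreed. Replicate 2 had 59.3 CPM of HOXB6, 78.4 of HOXD4, 29.6 of HOXB9, 24.4 of HOXD9, 10.1 of HOXA5 and 4.59 of HOXA3, the highest wild-type level for 5 of the 6 genes, and replicate 1 had none of them. The 14 cells of replicate 1 allow up to 1.57 CPM (3 counts). None of the 6 passed against Day 10 (0% of the genes did), with 0 at an unadjusted p under 0.05 and 0 by DESeq2, and the direction of all 6 turned when replicate 2 was left out.

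Between ISL1 mutant and wild-type Epi-derived cells at Day 14 none of the 6 genes passed the test. HOXD4 had 6.86 and 35.5 CPM in wild-type and 2.02 and 0.382 CPM in mutant libraries (log2 difference -3.84 ± 1.62, adjusted p = 0.176, edgeR). HOXB9 had 4.10 and 16.3 CPM in wild-type and 0.252 and 0.764 CPM in mutant libraries (-4.24 ± 1.71, adjusted p = 0.161). HOXA3 had 3.83 and 4.81 CPM against 0.504 and 0.764 CPM (-2.73 ± 1.08, adjusted p = 0.156). These 3 reached an unadjusted p under 0.05, as did 3044 of all 12399 genes. Their mutant levels rest on few UMIs: 8 and 1 of HOXD4, 1 and 2 of HOXB9, and 2 and 2 of HOXA3.
HOXA5 had 5.14 and 9.61 CPM in wild-type and 1.01 and 1.91 CPM in mutant libraries (-2.27 ± 1.32, adjusted p = 0.316). HOXB6 had 15.6 and 34.0 CPM against 8.06 and 9.55 CPM (-1.40 ± 1.13, adjusted p = 0.474), and HOXD9 had 9.20 and 17.4 CPM against 5.04 and 4.58 CPM (-1.36 ± 1.07, adjusted p = 0.464). The median log2 difference of the 6 was -2.50, beside 0.04 over all genes. In this comparison 0.218% of 12399 genes were called (0.0161% lower). Both mutant libraries lay below both wild-type libraries for all 6 genes, as they did for 27.7% of all genes tested. DESeq2 called 0 of the 6, and edgeR without its filter on low counts called 4 of them, HOXA5, HOXB6, HOXB9 and HOXD4, all lower, with adjusted p from 2.56e-12 to 0.00939, and 1059 genes in all. The study listed HOXA5, HOXB6, HOXB9 and HOXD4 between mutant and wild-type mesoderm and HOXD9 between mutant and wild-type amnion of these embryos, so a lower level of these is not independent evidence.
The make-up of the Epi-derived cells moved with genotype. Mesoderm-like cells were 37.8% and 31.0% of them in wild-type and 4.70% and 4.30% in mutant libraries, and amnion-like cells were 7.35% and 15.0% against 53.4% and 55.9%. In these sums fewer cells of a type and less RNA per cell cannot be told apart, and the part of the make-up in the lower levels was not tested. The p-values measure the spread between pools of embryos in 1 or 2 libraries a group, estimated over libraries of all days and both genotypes. These include the wild-type Day 12 libraries, which disagreed. With only the compared groups in the fit, 118 genes were called, but no member.

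**Figure D4:**
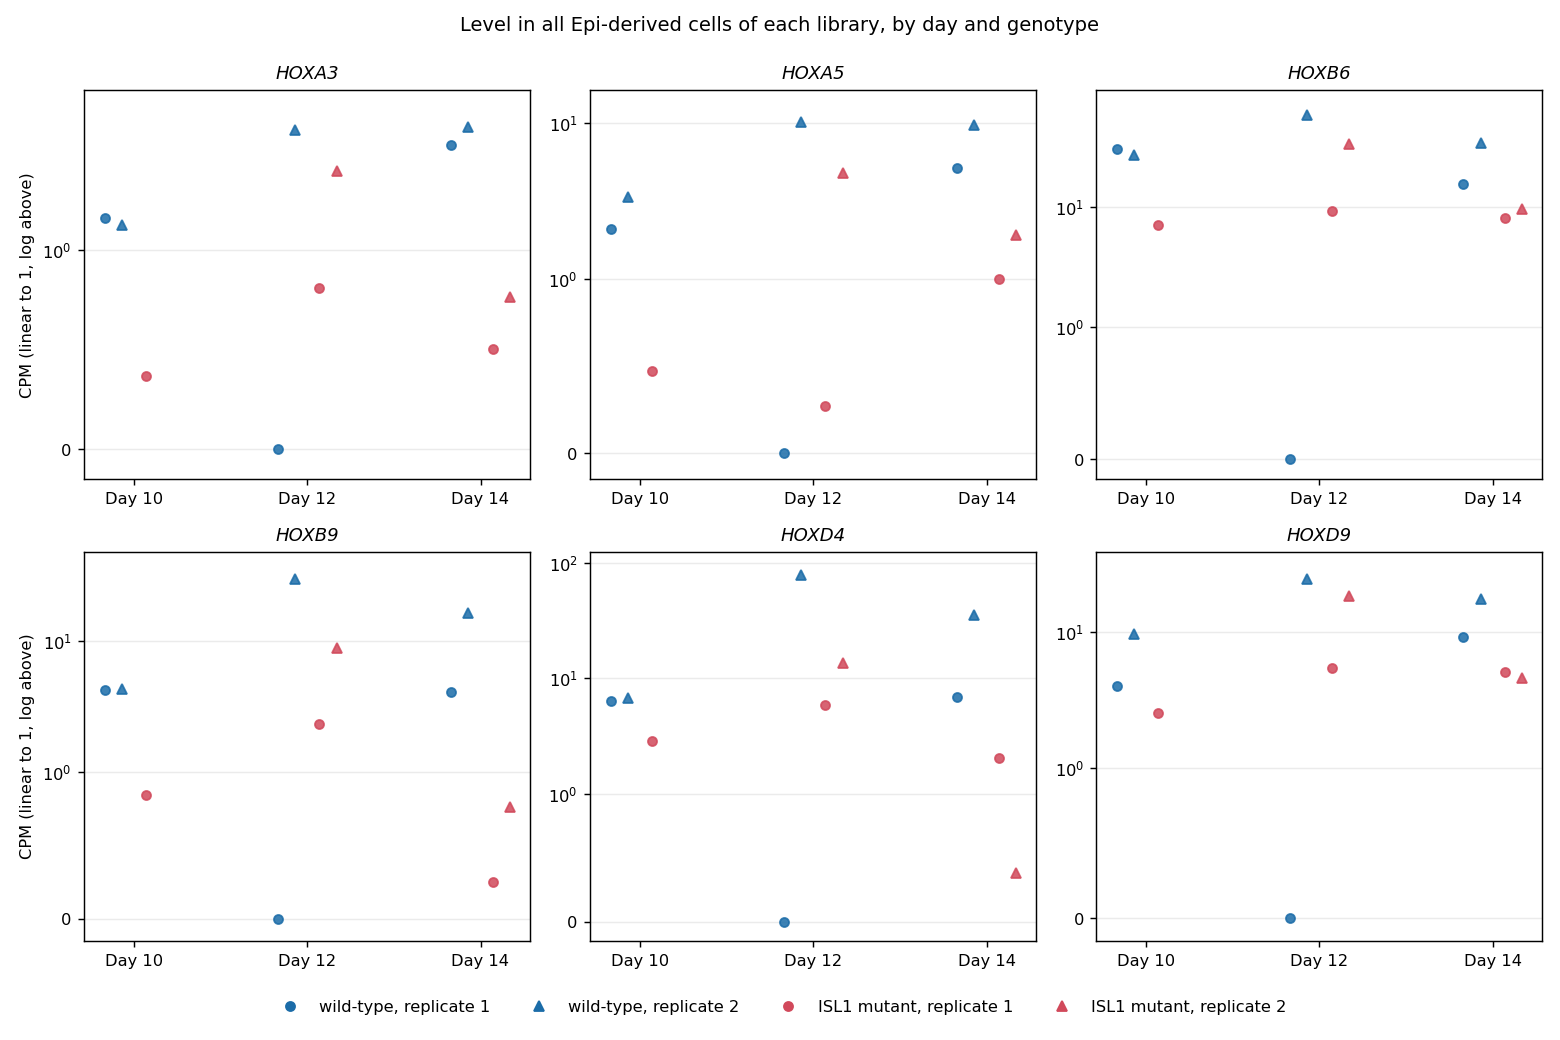
Each panel gives the CPM of 1 HOX gene (vertical axis, linear up to 1 and logarithmic above) in all Epi-derived cells of each library by day; circles are replicate 1, triangles replicate 2, blue wild-type and red mutant. At Day 14 the 2 mutant libraries lie below the 2 wild-type libraries in all 6 panels, and at Day 12 the wild-type replicate 1 library is at 0 in all 6.

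Within single types no member passed the test between the genotypes, and the mesoderm-like values rest on few mutant cells. In mesoderm-like cells HOXB6 had 104 CPM in the mutant Day 10 library, 83.7 CPM at Day 12 and 13.0 CPM (3 UMIs) in the 1 Day 14 library with at least 5 such cells, against 38.0 and 52.6 CPM at wild-type Day 14 (log2 difference -1.88 ± 0.56, adjusted p = 0.688, edgeR). Of those 22 mutant cells 17 matched meso-1 and 5 meso-2, against 61 and 150 in wild-type replicate 1 and 30 and 5 in replicate 2, and the part of this in the values was not tested. The 22 cells had 3 UMIs each of HOXD4 and HOXD9, 1 of HOXA3, and 0 of HOXA5 and HOXB9. A count of 0 there allows up to 13.0 CPM, above the 10.96 CPM of HOXA5 and the 9.97 CPM of HOXB9 in wild-type Day 14 replicate 1 and below the 25.7 and 40.9 CPM in replicate 2. With 1 mutant library the test assumes that it varies like the libraries of the other groups, which set the spread. None of the 6 was called, as was no gene of 8799 (0%), with 1 member and 610 of all genes at an unadjusted p under 0.05 and 0 members by DESeq2. The 4 mesoderm-like cells of mutant Day 14 replicate 2 had no member UMI and were left out of the test.
After thinning to 10000 UMIs, 68.6% of the 10 mutant mesoderm-like cells at Day 10, 48.8% of 32 at Day 12 and 14.6% of 10 at Day 14 kept a member UMI. The mutant shares lay below the wild-type shares of the same day on all 3 days, which was not tested.
Among amnion-like cells, which are plentiful in the mutants, HOXD9 had 9.77 and 12.6 CPM at mutant Day 14 against 30.1 and 21.7 CPM in wild-type (-1.20 ± 0.46, adjusted p = 0.192, edgeR). HOXD4 had 2.87 and 1.05 CPM (the latter from 1 UMI) against 5.54 and 31.0 CPM (-2.45 ± 0.88, adjusted p = 0.167, edgeR). HOXB6 overlapped, with 16.7 and 26.2 CPM against 12.7 and 86.7 CPM. The class was made up differently, with AM-1-like cells 13 of 41 and 15 of 17 in wild-type and 15 of 250 and 8 of 52 in mutant libraries, and the part of this in the values was not tested. None of the 5 members tested was called (0.0516% of 9688 genes were), with 2 members and 1885 of all genes at an unadjusted p under 0.05 and 0 members by DESeq2, and HOXA3 was too rare to be tested.
In ExE-Mech-like cells HOXB9 had 1.75 and 1.04 CPM at mutant Day 14 against 4.10 and 8.81 CPM in wild-type (-2.10 ± 0.48, adjusted p = 0.182, edgeR). HOXA5 had 0.244 and 0.135 CPM against 0.997 and 1.18 CPM (-2.37 ± 0.57, adjusted p = 0.188), and HOXD4 overlapped between the genotypes. None of the 6 was called, nor was any of 12801 genes (0%), with 2 members and 2171 of all genes at an unadjusted p under 0.05 and 0 members by DESeq2.
At Day 12 the mutant Epi-derived cells had 9.33 and 33.4 CPM of HOXB6, 5.83 and 13.6 of HOXD4, and 5.38 and 18.4 of HOXD9, all between the 2 wild-type libraries of that day. None of the 6 was called (0.00807% of the genes were), with 0 at an unadjusted p under 0.05 and 0 by DESeq2.
The excess of Epi-derived over other lineages was also compared between the genotypes at Day 14. It was smaller in mutants by 1.86 ± 0.62 for HOXB6, 2.44 ± 0.80 for HOXD9 and 3.89 ± 1.27 for HOXD4 on the log2 scale, with adjusted p = 0.262, 0.257 and 0.250 (edgeR). None of the 6 was called, where 0.0148% of the genes were, with 4 members and 1583 of 13538 genes at an unadjusted p under 0.05 and 0 members by DESeq2.

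Other genes of the HOX clusters were compared by counts. Of the 9 other HOX genes that the study's tables pair with an identifier, 7 were higher in wild-type Epi-derived cells at Day 14, among them HOXB2 (mean 21.9 CPM against 2.98 CPM), a gene of the anterior end of its cluster, and 0 were lower, where 12.6% of the 13538 genes tested were higher. Those tables list mainly genes that differed between types, days or genotypes of these embryos, so the share over all genes is not a matched background. HOXD10 and HOXD12, genes of the posterior end, were also among the 7, so the calls were not split by position in the cluster. HOXA10 and HOXA11, posterior genes too, did not pass in Epi-derived cells. They were called higher in ExE-Mech-like cells instead, at means of 94.2 and 42.5 CPM against 18.2 and 11.1 CPM over the other lineages (adjusted p = 2.83e-05 and 1.52e-06, edgeR). In trophoblast-like cells 5 of the 9 were lower, where 11.5% of the 13538 genes tested were. None of the 9 was called between mutant and wild-type Epi-derived cells at Day 14, where 0.218% of 12399 genes were. Their median log2 difference was -0.84, beside -2.50 for the 6 members.
For regulators too, identifiers came mainly from the study's tables of differing genes, and those without one were not tested. Of 28 listed regulators and cofactors of HOX genes, 15 had an identifier and 14 were tested between the lineages, and 12 of these were higher in Epi-derived cells, again beside 12.6% of all genes, which is not a matched background. They include CDX1 (172 CPM against 1.04 CPM), CDX2 (224 against 30.9 CPM), CDX4 (64.8 against 0.277 CPM), TBXT, the brachyury gene of the primitive streak (4.03 against 0.150 CPM), and CYP26A1, which degrades retinoic acid (52.8 CPM against a mean of 107 CPM, higher on the averaged log scale). MEIS2, a HOX cofactor, was not called (adjusted p = 0.464, edgeR). In mutant Epi-derived cells at Day 14 none of the 15 was called, where 0.218% of 12399 genes were, and their median log2 difference was -2.51. CDX1 had a mean of 9.02 CPM against 172 CPM in wild-type (adjusted p = 0.0569), TBXT had 0 against 4.03 CPM (adjusted p = 0.0480), and MEIS2 had 51.1 against 9.82 CPM (adjusted p = 0.107).

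Among the 1014 genes with a symbol, with the members themselves left aside, those whose levels ran most like each member were mostly other HOX genes. Over 52 samples (a type in a library, with at least 20 cells) the log2 levels of HOXB9 ran with those of HOXB8 at Pearson's r = 0.939, and among non-members HOXB8 also came first for HOXB6 (0.860) and HOXD4 (0.847). HOXD9 ran most closely with HOXD12 (0.859), WNT3 (0.850) and HOXD10 (0.839). HOXA3 ran with AMER2 (0.847) and IL15 (0.831), and HOXA5 with HOXB2 (0.825) and HOXB8 (0.802). Between members r ran from 0.616 (HOXA3 and HOXB6) to 0.886 (HOXB9 and HOXD4). Samples of 1 library share embryos and depth, low levels weigh on every pair, and no p is given.
Neighbouring HOX genes can share tags. In the RefSeq models of the T2T-MFA8v1.1 assembly, which is not the build of the counts, HOXA3 overlaps HOXA4, HOXA5 and HOXA6, HOXB9 overlaps HOXB8, HOXD4 overlaps HOXD3, and HOXD9 overlaps no other model. Whether tags were split between such genes in the deposited counts could not be checked.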

How the data were processed

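The authors aligned and counted 10x Genomics libraries with Cell Ranger 3.1.0 against the Ensembl cynomolgus annotation, filtered cells and genes, and removed ambient RNA with SoupX. The deposited SoupX-corrected UMI counts, whole numbers per gene and cell, were used throughout and treated as estimated counts because ambient RNA had been subtracted. The deposited raw counts without correction served as an alternative, and 209 cells found only there were left out. Totals per library and cell set the precision, and intervals cover counting error only.

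Cells were integrated and clustered per day as in the study (Seurat 5.3.0, uwot 0.2.3, 5000 features, 30 dimensions). The features left out ISL1 and the HOX genes and regulators whose identifier is paired with a symbol. Those were the 6 members, 9 other HOX genes and 15 of the 28 listed regulators. HOX genes and regulators without such a pairing could stay among the features. Clusters were named from 10 marker lists by a rule revised after clusters, but not HOX levels, were seen. No doublet caller was run and doublets were not removed. UMIs were summed per type and library (at least 5 cells) and compared with edgeR 4.0.16 (its quasi-likelihood test after TMM scaling and the filterByExpr filter, two-sided, called at a 1% false discovery rate by Benjamini and Hochberg; the estimated counts needed no rounding), in 13 comparisons. In comparisons within a type, libraries of all days and both genotypes shared the estimate of the spread. Alternatives were DESeq2 1.42.0, RLE size factors, no filter, uncorrected counts, at least 20 cells and another UMAP seed. Others were each replicate left out, only the compared groups in the fit, and fits with or without the replicate block. The code was tested on simulated data. The members, lists and named genes (the members, up to 8 other HOX genes, 6 regulators, and the 3 genes most like each member by log2(CPM + 5)) were chosen with earlier results of these data known; some items are not reported here. Wild-type replicate numbers are labelled batches. Between Epi-derived samples of the same number, deviations correlated at -0.105 to 0.288 over the wild-type day pairs.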

Additional observations from a re-analysis of the deposited data

Results flagged for a closer look

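In the mutant Day 10 library, which is on neither side of any comparison, 60 ExE-Mech-like cells stood out, since neither wild-type Day 10 library held cells of that type. They had 78.5 CPM of HOXB6 (526 UMIs), 16.4 of HOXB9, 10.4 of HOXD4, 6.57 of HOXA5, 5.52 of HOXD9 and 0.895 of HOXA3, each from more than 3 UMIs, and at least 4 of the 6 genes were seen in 31.7% of them. The HOXB6 level was above that of all 7 other libraries with such cells (1.58 to 31.3 CPM). In the same library HOXB6 had 6.25 CPM and HOXD9 1.91 CPM in trophoblast-like cells, and HOXD4 had 1.95 CPM (4 UMIs) in endoderm-like cells, above both wild-type Day 10 libraries. The library is a single one of its kind, from 3 embryos.

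At Day 14 some genotype differences ran in opposite directions in different lineages, with both libraries of a genotype on the same side. Mutant minus wild-type means of HOXD9 were -8.48 CPM in Epi-derived and 2.76 CPM in trophoblast-like cells. For HOXB6 they were -16.0 CPM in Epi-derived, -5.32 CPM in ExE-Mech-like and 1.77 CPM in trophoblast-like cells. HOXA5 gave -5.92, -0.901 and 0.140 CPM in the same 3 lineages, and HOXA3 gave -3.69 CPM in Epi-derived and 0.150 CPM in ExE-Mech-like cells. Between these pairs of lineages the difference was not tested. HOXA5 in trophoblast-like cells and HOXA3 in ExE-Mech-like cells stayed under 0.3 CPM at Day 14 in both genotypes.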

How the results depend on the processing

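Of 766 values of single members under other settings, 713 kept their direction and their side of the 1% threshold, 11 gained a call, 8 lost one and 34 turned direction, none of these being a called value; the cause was not tested. Without the filter on low counts, members called between mutant and wild-type Epi-derived cells were 4 at Day 14 and 1 at Day 12, and between wild-type days 1 (Day 14 against Day 10) and 2 (Day 12 against Day 10). Genes called in all under that setting were 321 between the genotypes at Day 12, 707 for Day 14 against Day 10 and 294 for Day 12 against Day 10. Genes called overall at Day 14 were 27 between the genotypes, 532 by DESeq2 and 1059 without the filter. Fewer were called when any of the Day 14 libraries was left out, which leaves a single library on that side. Leaving out either wild-type Day 14 library left 5 to 6 members higher in Epi-derived cells and 1 in ExE-Mech-like cells. In trophoblast-like cells DESeq2 called 4 members lower, and 0 were called with uncorrected counts, at 20 or more cells, without either library, or with no replicate block. All genes called in trophoblast-like cells, in either direction, were 3460 in the main fit and 2630 to 4262 over the alternatives that kept every library. The 2 Day 12 comparisons rest on wild-type Day 12 replicate 2, without which only the library with no member UMI is left and values depend on the constant added to zeros. With 1 library left out, the log2 differences between mutant and wild-type at Day 12 ran from -1.71 to 7.06 (HOXA3), -4.31 to 7.49 (HOXA5), -1.68 to 10.73 (HOXB6), -2.70 to 8.76 (HOXB9), -2.995 to 9.60 (HOXD4) and -1.25 to 9.88 (HOXD9), and those between Day 12 and Day 10 from -6.93 to 1.56, -7.88 to 1.75, -11.26 to 0.923, -8.51 to 2.67, -9.14 to 3.45 and -9.21 to 1.69 in the same order. Leaving out mutant Day 12 replicate 1 also turned HOXB6 (0.088) and HOXD9 (0.441), and leaving out wild-type Day 10 replicate 2 turned HOXB6 (-0.074). Left-out Day 14 libraries gave -0.852 to 0.206 (HOXB6) and -0.022 to 1.89 (HOXB9) for Day 14 against Day 10, -0.70 to 0.516 (HOXA5) and -1.93 to 0.809 (HOXB6) for mutant amnion-like cells, and -2.42 to 0.238 for HOXD4 in mutant ExE-Mech-like cells. Against the other lineages they gave -3.18 to 0.697 (HOXA3) and -1.35 to 1.82 (HOXD9) in ExE-Mech-like cells and -0.158 to 0.359 (HOXB6) in trophoblast-like cells, and the difference between genotypes for HOXD9 ran from -4.70 to 0.863. Without wild-type Day 14 replicate 2, amnion-like HOXA5 was 0.220. Over other settings HOXD4 ranged from 0.089 to 2.39 for Day 14 against Day 10 and from -3.65 to -1.22 in mutant amnion-like cells. Between mutant and wild-type Epi-derived cells at Day 14 the ranges were -5.52 to -2.41 (HOXD4), -5.18 to -3.16 (HOXB9) and -3.10 to -2.34 (HOXA3). There HOXA5 ranged from -2.85 to -1.76, HOXB6 from -1.88 to -0.863 and HOXD9 from -1.78 to -0.968. With the batch number as a replicate block, HOXD9 became 0.080 between the genotypes at Day 12 and HOXB6 -0.608 between Day 12 and Day 10, and the block changed no count of members in the comparisons where it was added. At 20 or more cells amnion-like HOXA5 became 0.239 and HOXB6 0.819, and trophoblast-like HOXB6 0.048 (0.102 without the filter). DESeq2 gave HOXB6 -0.032 for Day 12 against Day 10, endoderm-like HOXA3 0.058 and trophoblast-like HOXD9 -0.032. No value could be had for mesoderm-like cells without mutant Day 14 replicate 1, or for AM-1-like against AM-2-like cells at 20 or more cells or without either library.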
